A study of Homo sapiens with 6 samples.

Results

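The genes described here are 5 keratins (KRT7, KRT8, KRT17, KRT18 and KRT19) and 5 other genes of glandular epithelium (CLDN7, EPCAM, CDH1, AGR2 and SPDEF). They are a list of gene symbols drawn up with earlier results of these data known, and are 10 of the 20042 genes in the count table. RNA sequencing was carried out on total RNA of the human line MDA-MB-231, long established from a breast cancer and mesenchymal in character. In 3 cultures the cells were transfected with siRNA-1, a small interfering RNA directed against ERBBride, and the labels give their genotype as an ERBBride knockdown. In 3 cultures they received a control siRNA, siCTRL, with the genotype given as wild type. The labels call the cultures biological replicates but do not say how they were separated, so the p-values reflect only variation among these cultures, which may be technical, and 1 siRNA sequence against ERBBride was used.

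Keratins are the intermediate filament proteins of epithelial cells, and each filament is built from a type I and a type II keratin in equal amounts. KRT8 with KRT18, joined by KRT7 and KRT19, forms the network of simple and luminal epithelia, while KRT17 belongs to basal epithelium and to skin appendages and is induced in stressed or wounded epidermis. CDH1 encodes E-cadherin of adherens junctions, CLDN7 a claudin of tight junctions and the lateral membrane, and EPCAM an adhesion protein that binds claudin-7. AGR2 is a protein disulfide isomerase of the endoplasmic reticulum of secretory epithelium, and SPDEF is an ETS transcription factor of luminal and goblet cells. MDA-MB-231 is classed as a basal-like or claudin-low line and is known for low E-cadherin.

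Levels are given in CPM (counts-per-million, the count of a gene relative to all counts of its library) after TMM scaling (trimmed mean of M values), a correction for library composition. Total counts lay between 14153969 and 15014434 in siRNA-1 libraries and between 12813706 and 14847527 in siCTRL libraries. In no library did 3 counts exceed 0.233 CPM, and limits and intervals from counts cover counting error only. The library siCTRL 2 stood apart: its counts differed from those of the other siCTRL libraries by a chi-square per degree of freedom of 11.4 and 11.5, against 2.13 to 2.40 for the other pairs of libraries within a group. No gene in the table was named ERBBride, so that its knockdown could not be checked here. Of the markers of the line, VIM had 1676 ± 28.9 CPM in siRNA-1 libraries and 2652 ± 77.9 CPM in siCTRL libraries (SD, n = 3 each), and the 8 mesenchymal markers summed to between 4116 and 4234 CPM against between 7909 and 8364 CPM. Nuclear receptor genes that define the hormone-sensitive luminal class were at or near 0: PGR had 0 counts in every library and ESR1 had at most 3 counts in any library. The genes are therefore called luminal only in the sense of their normal tissue.

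In cells given siRNA-1, 9 of the 10 genes fell and KRT17 rose (edgeR quasi-likelihood test, Benjamini-Hochberg adjusted p under 0.05 over 12440 tested genes). In the same test 31.0% of all tested genes fell and 31.5% rose. At least 2-fold falls were seen in 6 of the 10 (CLDN7, EPCAM, CDH1, AGR2, SPDEF and KRT7), while 8.14% of tested genes fell that far. For 9 of the 10, every siRNA-1 library lay below every siCTRL library, against 33.0% of tested genes. The median log2 fold change of the 10 was -1.24, beside 0.0059 over all tested genes. Only 8 of the 10 reached the count minimum in both groups: KRT17 passed through the siRNA-1 libraries and CDH1 through the siCTRL libraries, so that each had to differ to be tested. In bulk RNA, fewer cells expressing a gene and less RNA of it per cell cannot be told apart.

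**Figure D1:**
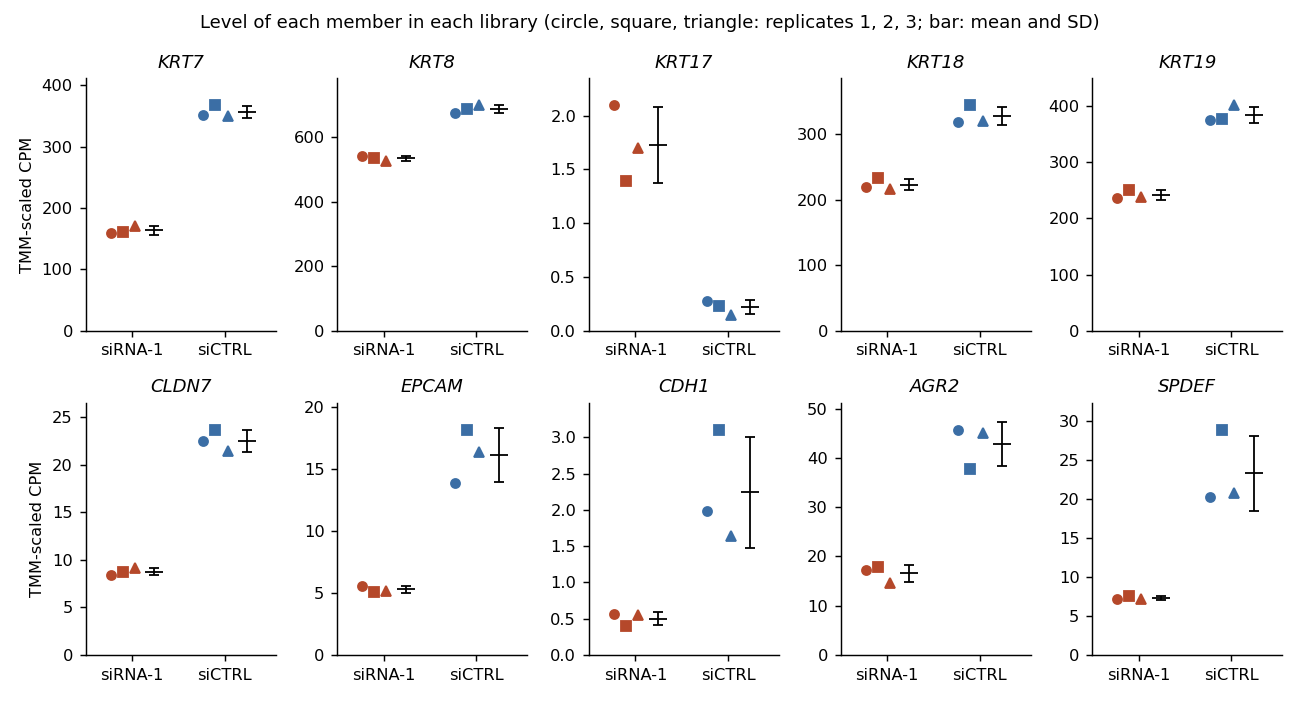
TMM-scaled CPM of each of the 10 genes in each library, siRNA-1 in red on the left and siCTRL in blue on the right of each panel; circles, squares and triangles are replicates 1, 2 and 3, and the bar gives mean and SD (n = 3). All axes start at 0. The groups do not overlap in any panel, and KRT17 is the gene whose siRNA-1 libraries lie above the siCTRL libraries.

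Of the type II members KRT7 and KRT8, KRT7 had the larger fall. KRT7, a keratin of ducts and glands, is ENSG00000135480.17 and spans bases 52232520 to 52252186 of chromosome 12, plus strand (GRCh38, here and throughout), and its main transcript has 9 exons. Its level was 158, 160 and 171 CPM in siRNA-1 libraries 1 to 3 and 351, 367 and 350 CPM in siCTRL libraries 1 to 3. All siRNA-1 libraries were well below the lowest control. This was a 2.18-fold fall, with a log2 fold change of -1.12 (SE 0.054, edgeR adjusted p = 1.26e-08). KRT8, the partner of KRT18, is ENSG00000170421.13 on the minus strand of chromosome 12 from 52897187 to 52949954. It had 542, 538 and 525 CPM in siRNA-1 cells, against 675, 689 and 699 CPM in siCTRL cells. The libraries were tight within each group and the groups were apart, although the fall was the smallest of the members that fell, at 1.29-fold (log2 fold change -0.36, SE 0.047, edgeR adjusted p = 3.51e-05).

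The type I keratins split. KRT18 (ENSG00000111057.11, chromosome 12, bases 52948871 to 52952901, plus strand) had 219, 232 and 216 CPM in siRNA-1 libraries and 318, 344 and 320 CPM in siCTRL libraries. KRT19, a small keratin that lacks the usual tail domain, is ENSG00000171345.13 on the minus strand of chromosome 17 from 41523617 to 41528308. It had 236, 251 and 238 CPM in siRNA-1 libraries and 376, 377 and 402 CPM in siCTRL libraries. In both genes the highest siRNA-1 library was below the lowest control, with falls of 1.47-fold for KRT18 (log2 fold change -0.56, SE 0.055, edgeR adjusted p = 3.95e-06) and 1.59-fold for KRT19 (log2 fold change -0.67, SE 0.053, edgeR adjusted p = 6.55e-07).

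KRT17 went the other way, from a base near the limit of detection. It is ENSG00000128422.18 on the minus strand of chromosome 17 from 41619441 to 41624842, in the same type I keratin cluster as KRT19. Its raw counts were 30, 21 and 25 in siRNA-1 libraries, against 4, 3 and 2 in siCTRL libraries. The control counts lay at about 3 per library, and all siRNA-1 libraries were above them. The level was 1.73 ± 0.353 CPM in siRNA-1 and 0.218 ± 0.0638 CPM in siCTRL cells (SD, n = 3). The summed counts of 76 and 9 gave a ratio of 7.84 with an exact 95% counting interval of 3.92 to 17.8. The fitted log2 fold change of 2.92 (SE 0.40, edgeR adjusted p = 5.58e-05) depends on how so few control counts are treated and is no bound. At its higher level KRT17 was still 0.151% of keratin transcripts per kilobase in siRNA-1 cells, against 0.0129% in siCTRL cells.

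These keratin transcripts share sequence with other genes, and the sources used here do not say how such reads were counted. In GENCODE release 29, 50 pseudogenes are named after KRT8, 68 after KRT18, 8 after KRT17 and 5 after KRT19. Of the 50-base windows of the main transcript, 36.9% in KRT8, 47.6% in KRT18, 17.4% in KRT17, 10.8% in KRT7 and 1.79% in KRT19 occurred in the transcripts of another gene. With genes of the count table alone the shares were 6.16% in KRT8, 21.8% in KRT18, 1.77% in KRT17, 0.997% in KRT7 and 0 in KRT19. In KRT18, 21.5% of the windows were shared with KRT8. KRT8 and KRT18 lie on opposite strands and share 525 exonic bases, which is 7.63% of the exonic bases of KRT8 and 16.3% of those of KRT18. KRT7 shares 6.89% of its exonic bases with the antisense gene KRT7-AS. Without a stated strand setting, reads from such overlaps cannot be assigned, and the part of shared sequence in the fold changes was not tested.

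The keratins did not move in proportion. The KRT8 to KRT18 ratio of CPM was 2.47, 2.31 and 2.43 in siRNA-1 libraries and 2.12, 2.00 and 2.18 in siCTRL libraries. The KRT7 to KRT19 ratio was 0.671, 0.638 and 0.719 in siRNA-1 libraries and 0.933, 0.975 and 0.871 in siCTRL libraries. The first was higher in every siRNA-1 library (log2 difference 0.19) and the second lower in every one (log2 difference -0.45), each with p = 0.1 in a two-sided exact permutation test, the smallest p that 3 libraries against 3 allow. The summed level of the 5 keratins was 1164 ± 16.1 CPM in siRNA-1 and 1756 ± 30.6 CPM in siCTRL cells (SD, n = 3), a difference of 1.51-fold with the same smallest p of 0.1.

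Levels were set side by side per kilobase of the main transcript, since longer transcripts give more reads. They depend on the transcript chosen, for KRT8 on KRT8-216 of 2126 bases, and with it the keratin shares and the type II to type I ratio below. In siRNA-1 cells the order from high to low was KRT8 (252 CPM per kilobase), KRT19 (174), KRT18 (142), KRT7 (93.1), AGR2 (9.32), CLDN7 (5.68), SPDEF (3.85), EPCAM (3.07), KRT17 (1.14) and CDH1 (0.102), and no neighbours in it overlapped between libraries. In siCTRL cells the order was KRT8 (324 CPM per kilobase), KRT19 (277), KRT18 (210), KRT7 (203), AGR2 (24.1), CLDN7 (14.6), SPDEF (12.3), EPCAM (9.36), CDH1 (0.459) and KRT17 (0.144). There KRT18 and KRT7 overlapped between libraries, as did CLDN7 and SPDEF. KRT17 stood above CDH1 in siRNA-1 cells and below it in siCTRL cells.

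Over all 11 keratins with at least 1 CPM or among the members, KRT8 made up 34.1%, 32.9% and 32.9% of keratin transcripts per kilobase in siRNA-1 libraries, against 28.9%, 28.8% and 29.2% in siCTRL libraries. KRT7 made up 12.3% ± 0.585 in siRNA-1 libraries and 18.1% ± 0.454 in siCTRL libraries (SD, n = 3). The share of KRT8 was higher and that of KRT7 lower in every siRNA-1 library. KRT18 held 18.8% ± 0.472 in siRNA-1 and 18.7% ± 0.709 in siCTRL libraries, a difference smaller than the spread, while KRT19 held 23.0% ± 0.436 and 24.8% ± 0.787 (SD, n = 3). The sum of type II over the sum of type I keratins was 1.11 ± 0.0304 in siRNA-1 and 1.18 ± 0.0183 in siCTRL libraries.

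**Figure D2:**
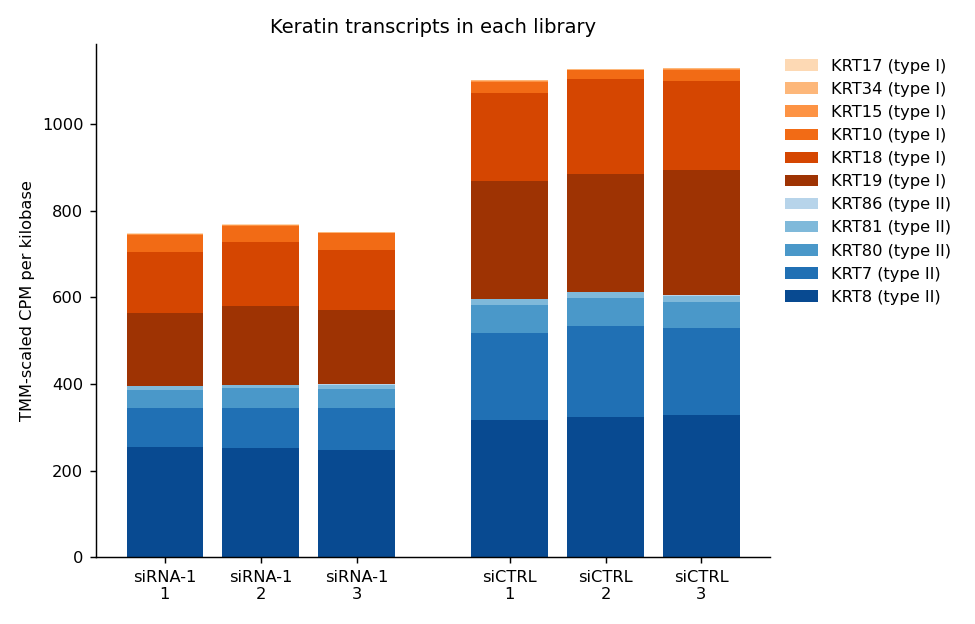
Stacked bars of TMM-scaled CPM per kilobase of the main transcript for 11 keratins, 1 bar per library, siRNA-1 libraries left of siCTRL libraries; blues are type II and oranges type I keratins. The bars reach 748 to 769 CPM per kilobase in siRNA-1 libraries and 1101 to 1128 in siCTRL libraries, and the KRT7 block (second from the bottom) makes up 12.3% of them on average in siRNA-1 and 18.1% in siCTRL libraries.

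Of the 50 other keratin genes, most had no reads: 15 of 26 type I and 18 of 24 type II genes had 0 counts in every library. The 3 other type II keratins that could be tested all fell. KRT80, a keratin of differentiating epithelia, had 170 ± 8.15 CPM in siRNA-1 and 244 ± 5.85 CPM in siCTRL cells, a fall of 1.43-fold (edgeR adjusted p = 6.57e-06). The hair keratin genes KRT81 (14.7, 15.2 and 18.1 CPM in siRNA-1 libraries against 28.1, 27.3 and 27.6 CPM in siCTRL libraries, 1.73-fold) and KRT86 (1.38 ± 0.0524 and 3.16 ± 0.503 CPM, 2.27-fold) also fell, but they share 35.3% to 38.4% of their 50-base windows with each other. Of the 3 other type I keratins tested, KRT10, a keratin of the upper epidermal layers, rose 1.60-fold. It had 81.9, 78.4 and 80.8 CPM in siRNA-1 libraries and 55.8, 40.8 and 53.7 CPM in siCTRL libraries (edgeR adjusted p = 7.77e-05). KRT15, of basal keratinocytes, had 9.62 ± 0.363 CPM in siRNA-1 and 7.86 ± 1.01 CPM in siCTRL cells and did not pass the test (edgeR adjusted p = 0.0677), nor did the hair keratin KRT34 (2.38 ± 0.350 and 2.09 ± 0.328 CPM). The basal keratin genes KRT5 and KRT6B had 0 counts in every library.

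**Figure D3:**
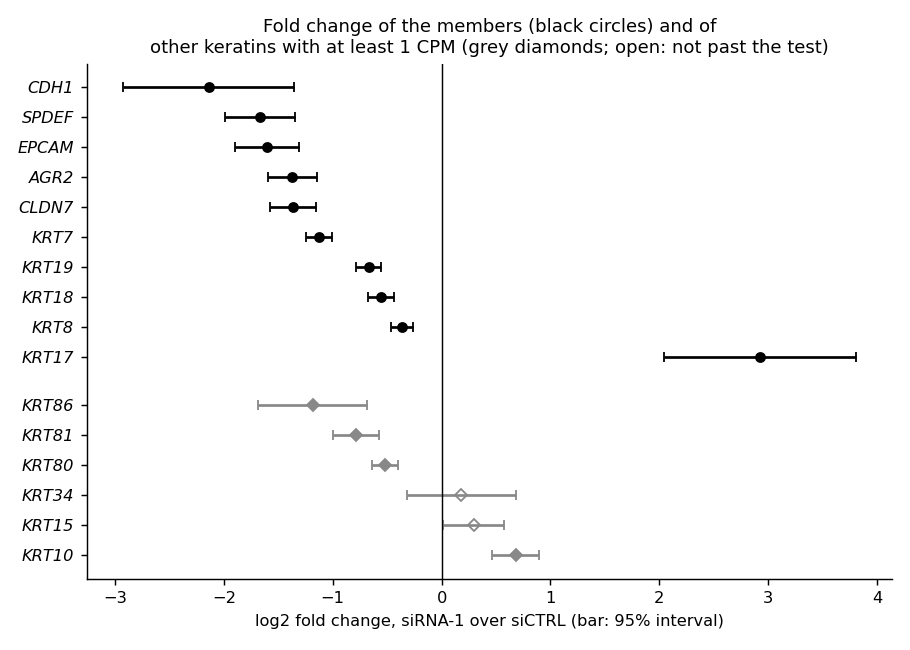
Log2 fold change, siRNA-1 over siCTRL, with its 95% interval for the 10 genes (black circles, by size) and 6 other keratins with at least 1 CPM (grey diamonds, open where the test was not passed). The members run from -2.14 for CDH1 to -0.36 for KRT8, with KRT17 alone to the right at 2.92, and among the other keratins KRT10 is the one that rose.

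VIM, the vimentin of mesenchymal intermediate filaments, also fell. It had 1643, 1698 and 1686 CPM in siRNA-1 libraries and 2564, 2680 and 2711 CPM in siCTRL libraries, a fall of 1.58-fold (log2 fold change -0.66, SE 0.048, edgeR adjusted p = 3.20e-07). The ratio of the 5 keratins to VIM, per kilobase and chosen after seeing the data, was 0.747, 0.742 and 0.726 in siRNA-1 libraries and 0.723, 0.714 and 0.705 in siCTRL libraries. It was higher in every siRNA-1 library but by a log2 difference of 0.048 (exact permutation p = 0.1, the smallest possible), which moved between 0.039 and 0.060 when 1 library was left out. Of 15 intermediate filament genes that are not keratins, VIM included, 8 were tested. Of these 6 fell, VIM among them, and 2 rose (median log2 fold change -0.29, beside 0.0059 for all tested genes). The nuclear lamin gene LMNB1 fell 1.82-fold, to 70.6 ± 0.531 CPM in siRNA-1 cells, against 129 ± 1.28 CPM in siCTRL cells. NES, which encodes nestin, fell 1.64-fold (26.6 ± 1.14 CPM in siRNA-1 and 43.8 ± 0.850 CPM in siCTRL cells). BFSP1, a filament gene known from the lens, rose 2.15-fold, with 15.4 ± 1.94 CPM in siRNA-1 and 7.20 ± 0.345 CPM in siCTRL cells, and the other rise was in the glial filament gene GFAP, named after its values were seen (6.33 ± 0.155 and 4.62 ± 0.154 CPM).

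Desmosomes anchor keratin filaments at the cell membrane through plakin proteins. Of 19 genes of desmosomes, plakins and other keratin partners 13 were tested, of which 9 fell, 2 rose and 2 did not pass, with a median log2 fold change of -0.63, and 5 fell at least 2-fold. PPL, the plakin periplakin, had 18.0, 17.3 and 19.3 CPM in siRNA-1 libraries, against 61.2, 77.7 and 65.5 CPM in siCTRL libraries. The lowest control was more than 3-fold above the highest siRNA-1 library, and the fall was 3.74-fold (edgeR adjusted p = 2.05e-08). The desmosomal cadherin gene DSG2 fell 2.70-fold (61.4 ± 0.302 CPM in siRNA-1 and 166 ± 5.49 CPM in siCTRL cells) and PERP, a desmosomal membrane protein gene, 2.34-fold (62.6 ± 3.50 and 146 ± 15.7 CPM). TCHP, which encodes the keratin-binding protein trichoplein, rose 1.92-fold, with 73.4 ± 2.13 CPM in siRNA-1 and 38.3 ± 1.46 CPM in siCTRL cells, and the other rise was in the plakin gene DST.

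CDH1 had the lowest fitted log2 fold change of the members, at a level close to the limit of detection. It is ENSG00000039068.20 and spans bases 68737225 to 68835548 of chromosome 16, plus strand, with 16 exons in its main transcript. Its raw counts were 8, 6 and 8 in siRNA-1 libraries and 29, 40 and 22 in siCTRL libraries. The highest count was in siCTRL 2, and all siRNA-1 libraries were below all controls. The level was 0.500 ± 0.0895 CPM in siRNA-1 and 2.24 ± 0.768 CPM in siCTRL cells (SD, n = 3). The summed counts of 22 and 91 put siCTRL 4.45 times above siRNA-1 after scaling for depth, with an exact 95% counting interval of 2.77 to 7.45. The fitted log2 fold change was -2.14 (SE 0.36, edgeR adjusted p = 0.000267), and -1.86 without siCTRL 2. Its 95% interval, -2.92 to -1.35, holds the fitted values of SPDEF, EPCAM, AGR2 and CLDN7, so the rank of CDH1 is not settled. CDH1 could be tested only through the siCTRL libraries, where it was high. An antisense gene, AC099314.1, covers 5.62% of the exonic bases of CDH1.

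Of 16 other cadherin, catenin and nectin genes 10 were tested, of which 6 fell, 3 rose and 1 missed the threshold (median log2 fold change -0.27). CTNNA1, the alpha-catenin that links cadherins to actin, fell 1.60-fold (570 ± 20.6 CPM in siRNA-1 and 914 ± 32.3 CPM in siCTRL cells). The R-cadherin gene CDH4 fell 1.70-fold (49.0 ± 2.95 and 83.6 ± 3.36 CPM) and AFDN, which encodes the nectin-binding afadin, 1.33-fold (160 ± 5.25 and 213 ± 26.4 CPM). NECTIN1, a cell adhesion receptor gene, rose 1.48-fold, with 44.8 ± 4.37 CPM in siRNA-1 and 30.2 ± 2.04 CPM in siCTRL cells. The mesenchymal cadherin gene CDH2, named after its values were seen and counted as a rise, had 29, 28 and 24 counts in siRNA-1 libraries and 8, 11 and 9 in siCTRL libraries, so that it could be tested only because siRNA-1 was high. The third rise was in the cadherin gene CDH11 (309 ± 11.1 and 231 ± 36.0 CPM).

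The transcription factors SNAI1, SNAI2, ZEB1, ZEB2, TWIST1, TWIST2, TCF3 and TCF4 are known repressors of CDH1. Of the 5 that could be tested, SNAI2 and TCF3 fell and the other 3 did not pass. The 40% that fell is near the 31.0% of all tested genes, so these counts do not set the list apart. SNAI2 had 20.9 ± 1.63 CPM in siRNA-1 and 61.0 ± 8.90 CPM in siCTRL cells (SD, n = 3), and fell 2.92-fold (log2 fold change -1.55, SE 0.11, edgeR adjusted p = 2.55e-07). TCF3 fell 1.73-fold, with 49.4 ± 2.83 CPM in siRNA-1 and 85.4 ± 8.17 CPM in siCTRL cells. Neither gene overlapped between groups. ZEB1 had 76.7 ± 7.81 CPM in siRNA-1 and 89.7 ± 14.2 CPM in siCTRL cells (edgeR adjusted p = 0.0834), and ZEB2 18.0 ± 0.739 and 20.1 ± 1.93 CPM (edgeR adjusted p = 0.188), so that neither passed. SNAI1 had 12, 22 and 16 counts in siRNA-1 libraries and 7, 22 and 6 in siCTRL libraries and did not pass (edgeR adjusted p = 0.492). TWIST1 and TWIST2 had 0 counts in every library, and TCF4, with 3 to 10 counts, was too low to test.

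CLDN7 lies on the minus strand of chromosome 17 from 7259903 to 7263983 (ENSG00000181885.18). It had 8.45, 8.68 and 9.13 CPM in siRNA-1 libraries and 22.5, 23.7 and 21.4 CPM in siCTRL libraries. The groups were far apart relative to the spread within them, and the gene fell 2.57-fold (log2 fold change -1.36, SE 0.097, edgeR adjusted p = 2.84e-07). It shares 10.8% of its exonic bases with AC003688.1 on the same strand and 1.52% with ELP5 on the other.

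SNAI and ZEB factors bind the E-box CACCTG, searched here on both strands (CACCTG or CAGGTG on the printed strand), and the promoter windows of the members were read for it. The windows are from RefSeq (GRCh38.p14) and run from 250 bases before a start site to 50 bases from it on, with the start itself counted as 1. Windows were matched for 4 of the 10 genes, with 2 starts for CLDN7. The start of 1 CLDN7 window is that of the main transcript, and this window is shown because it held 5 E-boxes, the most among the members, with first bases at -174, -135, -20, -9 and 6. The AGR2 window held 1 E-box, at 45, and its last 100 bases are shown for contrast. Capitals mark the E-boxes, and both are read 5′ to 3′ on the minus strand.
CLDN7, chr17:7262429-7262728: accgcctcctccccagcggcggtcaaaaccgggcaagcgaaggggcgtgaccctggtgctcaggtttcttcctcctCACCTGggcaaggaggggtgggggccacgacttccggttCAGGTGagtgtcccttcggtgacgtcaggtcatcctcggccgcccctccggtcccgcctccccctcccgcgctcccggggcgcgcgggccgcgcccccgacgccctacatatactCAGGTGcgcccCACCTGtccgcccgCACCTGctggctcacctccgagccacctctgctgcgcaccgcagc
AGR2, chr7:16804950-16805049: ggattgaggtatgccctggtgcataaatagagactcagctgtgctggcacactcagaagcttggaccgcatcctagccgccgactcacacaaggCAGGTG

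Among 35116 RefSeq promoter windows of this length, 20.6% held at least 1 such E-box and 33 windows, 0.0940%, held at least 5. The other CLDN7 window, whose start lies 735 bases upstream of that of the main transcript, held 0, as did the windows of SPDEF and KRT8. The KRT8 window belongs to a start 23373 bases downstream of that of the transcript used for length. The start site of the AGR2 window lies 81 bases downstream of the start of its main transcript, and that of the SPDEF window 15 bases upstream. KRT7, KRT17, KRT18, KRT19, EPCAM and CDH1 had no window in the table used. A match describes the letters of a window and not binding.

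**Figure D4:**
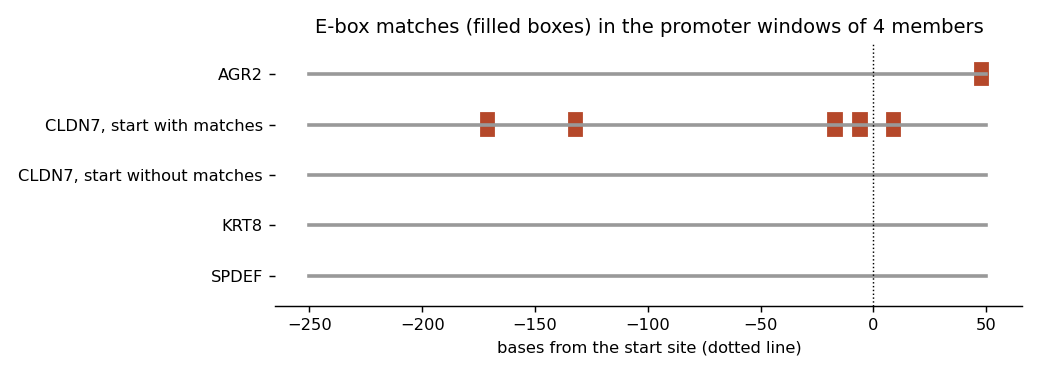
Positions of E-box matches (filled boxes, 6 bases wide) along 5 RefSeq promoter windows of 4 of the genes, in bases from the start site, which the dotted line marks; each grey line runs from 250 bases before the start to 50 bases after it. The CLDN7 window whose start site is that of the main transcript holds 5 matches, 3 of them close to the start. AGR2 holds 1 near the end of its window, and the other 3 windows hold 0.

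Other tight-junction and polarity genes moved in both directions. Of 29 genes 18 were tested, of which 7 rose, 6 fell and 5 missed the threshold (median log2 fold change -0.16). The 33.3% that fell is near the 31.0% of all tested genes, and 31.5% of all tested genes rose, so these counts do not set the list apart. The polarity gene PARD6B fell 2.65-fold (21.9 ± 1.87 CPM in siRNA-1 and 58.1 ± 4.14 CPM in siCTRL cells), F11R, which encodes the junctional adhesion molecule JAM-A, 2.35-fold (11.3 ± 1.29 and 26.6 ± 3.94 CPM) and PATJ, a scaffold of the Crumbs polarity complex, 1.69-fold (18.1 ± 0.380 and 30.7 ± 2.02 CPM). PARD3, a partner of PARD6B in the Par polarity complex, rose 1.28-fold, with 110 ± 3.97 CPM in siRNA-1 and 86.2 ± 2.03 CPM in siCTRL cells. Among other claudins, named after their values were seen, CLDN1 (14.4 ± 0.458 CPM in siRNA-1 and 9.02 ± 3.40 CPM in siCTRL cells, log2 fold change 0.69) and CLDN2 (8.16 ± 0.804 and 5.58 ± 0.436 CPM, log2 fold change 0.55) rose, and CLDN4 fell by 0.20 on the log2 scale.

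EPCAM (ENSG00000119888.11) spans bases 47345158 to 47387601 of chromosome 2, plus strand, and has 9 exons in its main transcript. It had 5.59, 5.10 and 5.18 CPM in siRNA-1 libraries and 13.9, 18.2 and 16.4 CPM in siCTRL libraries. The siRNA-1 libraries were close together, the controls spread more widely with siCTRL 2 highest, and the groups were apart. The fall was 3.04-fold, with a log2 fold change of -1.61 (SE 0.13, edgeR adjusted p = 1.00e-06), and -1.53 without siCTRL 2.

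Most genes of EPCAM's relatives, protein partners and proteases also fell: all 11 were tested, of which 9 fell and 2 missed the threshold (median log2 fold change -0.67). The hyaluronan receptor gene CD44 fell 1.67-fold (839, 874 and 839 CPM in siRNA-1 libraries against 1515, 1258 and 1495 CPM in siCTRL libraries), SPINT2, an inhibitor of membrane serine proteases, 1.60-fold (133 ± 5.30 and 211 ± 28.4 CPM) and FHL2, whose product binds the intracellular domain of EPCAM, 1.45-fold (47.8 ± 4.42 and 69.1 ± 0.369 CPM).

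AGR2 is ENSG00000106541.12 on the minus strand of chromosome 7 from 16791811 to 16833433. It had 17.3, 17.9 and 14.6 CPM in siRNA-1 libraries, against 45.7, 37.7 and 45.1 CPM in siCTRL libraries. Here siCTRL 2 was the lowest control, and it was still above all siRNA-1 libraries. AGR2 fell 2.59-fold (log2 fold change -1.37, SE 0.10, edgeR adjusted p = 4.64e-07), and by 1.47 on the log2 scale without siCTRL 2. Of 11 AGR2 relatives and secretory luminal genes 6 were tested, of which 3 rose, 1 fell and 2 missed the threshold (median log2 fold change 0.079). The disulfide isomerase genes TXNDC12 (14.2 ± 0.485 CPM in siRNA-1 and 8.75 ± 0.867 CPM in siCTRL cells, 1.62-fold) and P4HB (1350 ± 43.8 and 1184 ± 68.8 CPM, 1.14-fold) rose, while PDIA3 of the same family (410 ± 14.8 and 419 ± 30.8 CPM) did not pass. The other of the 3 rises was in DAG1 (506 ± 18.6 and 386 ± 39.2 CPM, 1.31-fold). It is a laminin receptor gene and not a disulfide isomerase relative of AGR2, although the list holds it. The gene counted as a fall was TFF3, a secreted trefoil peptide gene named after its values were seen. It had 3, 17 and 11 counts in siRNA-1 libraries, the first of them under the minimum count of 10, and 41, 17 and 24 in siCTRL libraries. The closest paralogue AGR3 had 0 counts in every library.

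SPDEF is ENSG00000124664.11 on the minus strand of chromosome 6 from 34537802 to 34556333. It had 7.19, 7.55 and 7.16 CPM in siRNA-1 libraries and 20.3, 28.9 and 20.8 CPM in siCTRL libraries. The highest control was siCTRL 2, and every control was more than 2-fold above the siRNA-1 libraries. The fall was 3.18-fold (log2 fold change -1.67, SE 0.15, edgeR adjusted p = 1.51e-06), and -1.50 on the log2 scale without siCTRL 2. The list of 24 other luminal and epithelial regulators held transcription factors and the splicing regulator ESRP2. Of these genes 16 were tested, of which 8 fell (ESRP2 included), 2 rose and 6 missed the threshold (median log2 fold change -0.24). CREB3L1, a membrane-bound factor released in secretory cells, fell 3.09-fold (19.0 ± 1.08 CPM in siRNA-1 and 58.9 ± 10.7 CPM in siCTRL cells) and XBP1, a regulator of secretory capacity, 1.42-fold (129 ± 8.25 and 184 ± 4.94 CPM). KLF4 (79.6 ± 1.66 and 59.1 ± 2.76 CPM, 1.35-fold) and TFAP2A (21.4 ± 1.39 and 13.4 ± 0.693 CPM, 1.59-fold), both factors of epithelial differentiation, rose. GATA3, a luminal factor named after its values were seen, fell with a log2 fold change of -1.35 (4.40 ± 0.515 CPM in siRNA-1 and 11.2 ± 1.60 CPM in siCTRL cells).

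Of 20 other epithelial genes 12 were tested, of which 6 fell, 3 rose and 3 missed the threshold (median log2 fold change -0.31). The falls, 4 of them at least 2-fold, were in SH2D3A, CD24, CDS1, MPZL2, ST14 and ERBB3. These genes lay below 10 CPM on average and were named after their values were seen. CD24 fell 3.01-fold (4.97 ± 0.230 CPM in siRNA-1 and 15.0 ± 1.75 CPM in siCTRL cells) and CDS1 2.94-fold (2.13 ± 0.385 and 6.27 ± 0.806 CPM). The clathrin adaptor gene AP1M2 rose 1.84-fold (39.5 ± 2.77 CPM in siRNA-1 and 21.5 ± 6.42 CPM in siCTRL cells) and LSR, which encodes a protein of tricellular junctions, 1.39-fold (33.8 ± 1.46 and 24.5 ± 3.87 CPM). The third rise was in the myosin gene MYO5B, named after its values were seen (3.36 ± 0.182 CPM in siRNA-1 and 1.91 ± 0.238 CPM in siCTRL cells). The 8 markers of the mesenchymal line were all tested, of which 7 fell and ZEB1 did not pass (their median log2 fold change was -1.02). Mesenchymal and fibroblast genes of other lists went both ways. CDH11 and COL1A1 rose and CDH2 was counted as a rise, while SNAI2 and LUM fell. ZEB2 did not pass, nor did the fibroblast markers COL1A2 and PDGFRB, named after their values were seen. MSN, the membrane-cytoskeleton linker moesin, fell 5.38-fold (195 ± 3.47 CPM in siRNA-1 and 1049 ± 12.2 CPM in siCTRL cells), TGFBI, a secreted matrix protein gene, 2.60-fold (82.3 ± 2.02 and 214 ± 7.26 CPM), the receptor kinase gene AXL 2.24-fold (544 ± 21.1 and 1219 ± 23.3 CPM) and CAV1, of caveolae, 2.18-fold (350 ± 14.4 and 763 ± 17.8 CPM).

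**Figure D5:**
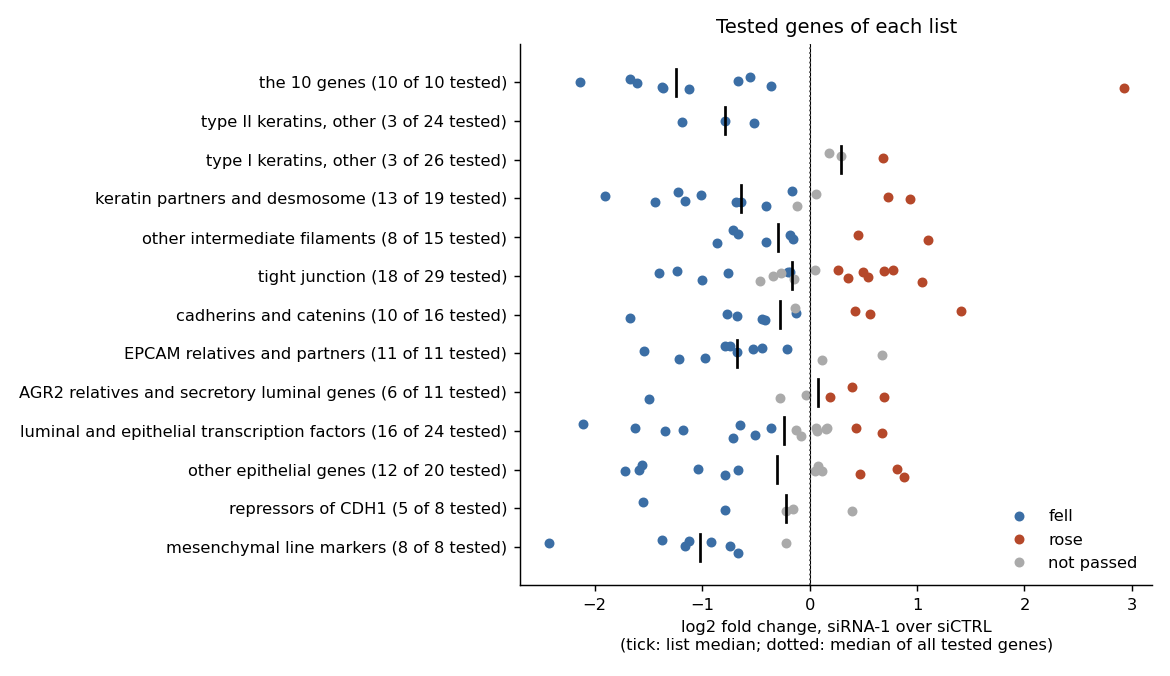
Log2 fold change, siRNA-1 over siCTRL, of the tested genes of 13 lists, 1 point per gene (blue fell, red rose, grey did not pass), with the list median as a black tick; the dotted line at 0.0059 is the median of all 12440 tested genes. Of the lists drawn, the 10 genes (-1.24) and the mesenchymal markers (-1.02) have the lowest medians, and the tight-junction list spreads to both sides. The 10 genes and the lists were chosen with earlier results of these data known, so this order is no test. The haematopoietic markers, which are not drawn, had a median of -1.17 over 3 tested genes.

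Of 11 basal and myoepithelial markers 7 were tested, of which 4 fell and 3 did not pass, and KRT17 was not counted among them. MYLK, the myosin light chain kinase gene, fell 1.69-fold (87.9 ± 1.35 CPM in siRNA-1 and 148 ± 5.41 CPM in siCTRL cells), the hemidesmosome gene ITGB4 1.28-fold (173 ± 9.47 and 222 ± 11.8 CPM) and the laminin gene LAMB3 1.15-fold (556 ± 20.9 and 636 ± 9.23 CPM). The fourth counted as a fall was the P-cadherin gene CDH3, named after its values were seen, with 3, 9 and 2 counts in siRNA-1 libraries and 13, 15 and 14 in siCTRL libraries, through which alone it could be tested. Markers of other cell types were also summed. The 8 fibroblast markers summed to between 34.9 and 39.9 CPM in siRNA-1 and between 31.9 and 33.3 CPM in siCTRL libraries; of 4 tested, COL1A1 rose (17.2 ± 1.15 and 4.95 ± 1.78 CPM), LUM fell (3.42 ± 0.924 and 7.60 ± 1.73 CPM) and 2 did not pass, and DCN had 0 counts. The 8 haematopoietic markers summed to between 182 and 188 CPM against between 146 and 195 CPM, most of it from CD68 (178 ± 2.68 and 159 ± 28.5 CPM), with CD3E, SPI1 and HBB among those at 0 counts; of 3 tested, CD14 (7.71 ± 0.450 and 17.3 ± 2.48 CPM) fell and LYZ was counted as a fall, with 2, 2 and 3 counts in siRNA-1 libraries, at the floor of 3, and 23, 9 and 17 in siCTRL libraries, through which alone it could be tested. The median log2 fold change of these 3 was -1.17. The 6 endothelial markers summed to between 8.38 and 10.8 CPM against between 15.7 and 17.8 CPM, with CDH5 at 0 counts, and both that were tested, PECAM1 (4.11 ± 0.564 and 7.46 ± 0.888 CPM) and KDR (5.15 ± 0.581 and 8.56 ± 1.41 CPM), fell. LUM, LYZ, CD68, PECAM1 and KDR were named after their values were seen. Over all lists, 8 called genes other than the members had under 10 counts in a library of the lower group (TJP3 and CDH2 among the rises; CDH3, TFF3, ESRP2, MYB, MPZL2 and LYZ among the falls), and list counts include them. The part of these markers in the changes of the 10 genes was not tested.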

How the data were processed

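The deposited table holds raw counts per gene for 6 libraries, made by the authors with HTSeq per the submitters' processing notes, which also name Trimmomatic, STAR, kallisto and the build hg38 without versions. Per the labels, a NEBNext Ultra kit was used to prepare the libraries. The sources used here state neither the annotation release nor the strand setting nor how reads that match several genes were treated.

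All genes were analysed with edgeR 4.0.16 under R 4.3.3: filterByExpr (minimum count 10, minimum total count 15), TMM scaling and the two-sided quasi-likelihood F test of siRNA-1 against siCTRL, with Benjamini-Hochberg adjustment over the 12440 genes tested and a threshold of 0.05. Standard errors were obtained from the log2 fold change and its F statistic. The filter, scaling and test were tested on simulated counts. Levels per kilobase used the main protein-coding transcript of GENCODE 29 (best APPRIS and support level, then longest). Ratios were compared by exact permutation of samples with scipy 1.17.1. Alternatives were DESeq2 1.42.0, limma 3.58.1 (voom), other scalings and filters, a threshold of 0.01, a pseudocount for ratios, the replicate number as a block and leaving out each library.

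The members and the gene lists were chosen with earlier results of these data known, and lists are described by counts and medians. List counts are to be read beside the 31.0% of all tested genes that fell and the 31.5% that rose. Named were all members, the other keratins of at least 1 CPM, all listed repressors of CDH1 and, from each list, up to 4 genes of at least 10 CPM that passed the test, by smallest adjusted p. Some results that this rule gives are not reported here. Genes that 2 lists hold, such as VIM, CD44 and ZEB1, were counted in both. Promoter windows came from RefSeq.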

Additional observations from a re-analysis of the deposited data

How the results depend on the processing

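Over 14 alternative fits, all 194 alternative values of gene counts and fold changes kept their direction and call or, for counts, lay within 1.5 times the main count. The stricter threshold of 0.01 leaves the fold changes themselves as they were. The 34 alternative values of ratios and of the summed level kept their direction, but no p of theirs can reach 0.05, so they say nothing of a call. The number of genes changed was 7772 and ranged from 6206 to 8635. All 10 members changed in the other fits, but at a mean of at least 100 counts 8 did, because KRT17 and CDH1 were not tested there. Leaving out 1 library moved the log2 fold change of CDH1 between -2.32 and -1.86 and that of KRT17 between 2.72 and 3.11. The summed keratin level differed by -0.61 to -0.56 on the log2 scale. With 1 library left out, the smallest exact permutation p that ratios allow is 0.2. The keratin to VIM ratio was added after seeing the data.

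Same-numbered libraries deviated from their group means with correlations of 0.076, -0.081 and -0.075, so that the numbers were not taken to pair the libraries. With the replicate number as a block 7535 genes changed, among them all 10 members, and 9 members were lower. Depth limits CDH1 and KRT17, which had at most 8 and 4 counts per library in the lower group.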

Other observations

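Further genes of the same lists, named after their values were seen, add to the description. Plakin and plaque genes that tie keratin filaments to junctions differed among themselves. DST, which encodes a plakin of hemidesmosomes, had 791 ± 40.0 CPM in siRNA-1 and 476 ± 88.2 CPM in siCTRL cells (SD, n = 3 each) and rose 1.66-fold (edgeR adjusted p = 6.26e-05). PLEC, which encodes plectin, fell 1.55-fold (1076 ± 43.1 CPM in siRNA-1 and 1670 ± 53.9 CPM in siCTRL cells). DSP, which encodes desmoplakin, fell 2.01-fold (97.3 ± 7.97 and 196 ± 20.4 CPM), and JUP, which encodes plakoglobin, 1.60-fold (32.0 ± 2.77 and 51.4 ± 4.84 CPM).

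Among genes of the epithelial state, SH2D3A, an SH2-domain adaptor gene, fell 3.29-fold, with 3.00, 3.64 and 3.41 CPM in siRNA-1 libraries and 11.1, 11.7 and 10.4 CPM in siCTRL libraries. SPINT1, an inhibitor of the protease matriptase, fell 2.91-fold (4.36 ± 0.371 CPM in siRNA-1 and 12.7 ± 1.04 CPM in siCTRL cells). ESRP2, a splicing regulator of epithelial cells, had 13, 12 and 5 counts in siRNA-1 libraries, the last of them under the minimum count of 10. In siCTRL libraries it had 38, 34 and 49 counts.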
